A study of Mus musculus with 28 samples.

Results

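The change in gene expression between 24 and 72 h of culture in 25 mM glucose was compared between NIH3T3 cells and a line labelled NIH3T3 K-ras, called the K-ras line here. The quantity of interest was the difference of 2 changes, the K-ras line's 72 h value minus its 24 h value, less the same change in NIH3T3, so that a gene that moved in a single line stands out. The arrays compared were defined by their labels, with earlier results of these data known. They were 8 of the series' 28 arrays, 2 for each line at 24 h and at 72 h. All cells of these groups were at 25 mM glucose and the same glutamine concentration. NIH3T3 is an immortalised line of mouse embryo fibroblasts, and the K-ras line, by its name, is a derivative of it. Cells were collected 24, 48 and 72 h after a change of medium, and RNA of each culture was hybridised to an Affymetrix array. The labels give neither the allele nor the clone, and with 1 line of each kind an effect of K-ras cannot be told apart from other differences between the lines. Replicates are labelled as biological, with no word on what was separate, so the p-values measure the spread between these arrays.

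RAS proteins are switches that pass growth factor signals to the kinase ERK, which raises transcription factors such as the AP-1 member Fosl1 and also its own inhibitors, the DUSP phosphatases and Sprouty proteins. Untransformed fibroblasts stop dividing when they become crowded or use up growth factors. They then lower genes of DNA replication, mitosis and ribosome production and raise genes bound by the FOXO transcription factors and genes of the lysosome. Activated RAS is known for letting such cells divide past these limits.

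Every value is a log2 ratio to the gene's own median over the series' 28 arrays. Differences between groups can therefore be read, levels between genes cannot, and the presence of a cell type's defining markers cannot be judged from a level. In bulk RNA, fewer cells of a type and less RNA per cell cannot be told apart. The limma fit used 12 arrays, these 8 and the 4 arrays of both lines at 48 h, with 18193 genes and no filter on low values. Il33, an alarmin cytokine, lay between -6.26 and -5.52 on the 6 NIH3T3 arrays and between 2.05 and 3.09 on the 6 K-ras arrays. Krt14 lay between 0.95 and 2.13 and between -4.585 and -4.16. By these 2 genes 0 of the 12 arrays had the profile of the other label. Both genes were chosen with earlier results of these data known, so the split cannot say which profile is that of the K-ras line. Elsewhere in the series, at 0 h or at 1 mM glucose, 6 arrays had the other line's profile. An earlier analysis had found such arrays. The 0 h and 1 mM groups were left out of the fit because these arrays would widen the spread shared by all groups. Replicate 1 of the K-ras line at 72 h stood apart: the interquartile range of its values was 0.78 against 0.29 to 0.53 on the others, and its bacterial spike controls bioB and bioC were at 3.07 and 2.98 against -0.69 and -0.26 on replicate 2. The replicates differed by at least 1 log2 unit in 18.0% of genes for the K-ras line at 72 h, 11.5% for NIH3T3 at 48 h and 0.35% for NIH3T3 at 72 h. The share was 4.30% for NIH3T3 and 4.26% for the K-ras line at 24 h, and 1.01% for the K-ras line at 48 h.

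The change between 24 and 72 h differed between the lines for 6 of 18193 genes (0.033% of genes tested, limma, Benjamini-Hochberg adjusted p under 0.05). The difference was positive for 4 genes (0.022%) and negative for 2 (0.011%). Fosl1, Noct and Dusp4 fell in NIH3T3, with K-ras changes of -0.29, -0.05 and 0.27. Ranbp3l and Galnt15 rose in NIH3T3 with a K-ras change of 0.12 or less. Dio2 rose in the K-ras line. An unadjusted p under 0.05 was reached by 2582 genes, 1142 positive and 1440 negative, where 910 would be by chance. In simulated data of this design, 2% of differences of 1 log2 unit, 58% of 2 units and 86% of 4 units were called. The simulation gave all groups of a gene the same spread. The groups here differ in spread, so these shares may not hold for them.

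The count depends strongly on which arrays are in the fit. Leaving out a 24 or 72 h array changes the estimated difference as well as the spread. The 8 arrays at 24 and 72 h alone gave 70 genes, the same 6 among them, of which 18 were positive and 52 negative. With all 28 arrays, among them the 6 with the other line's profile, 1 gene was called. Without K-ras 72 h replicate 2 the count was 2171, and without replicate 1, the array with the wide spread, it was 2. Without either NIH3T3 48 h array it was 206, and without NIH3T3 24 h replicate 2 it was 35. It was 0 without NIH3T3 24 h replicate 1, either NIH3T3 72 h array or K-ras 24 h replicate 2, and 3 without K-ras 24 h replicate 1. It was 4 without either K-ras 48 h array. Quantile normalisation gave 13 genes, 76.9% of them positive against 66.7%.

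The bases upstream of the transcription start are shown for Dio2, the gene that rose in the K-ras line, and for Galnt15, since each holds a motif that was searched for. The sequences are RefSeq's for GRCm38.p6, 250 bases that end just before the start, in the direction of transcription. Capitals mark motif matches: in Dio2 a cAMP response element (TGACGTCA) 95 bases before the start and a TATA box (TATAAA) 30 bases before it, and in Galnt15 an AP-1 element (TGACTCA) 58 bases before it. Dio2 lies at chr12:90739039-90739288 on the minus strand and Galnt15 at chr14:32028853-32029102 on the plus strand.
Dio2: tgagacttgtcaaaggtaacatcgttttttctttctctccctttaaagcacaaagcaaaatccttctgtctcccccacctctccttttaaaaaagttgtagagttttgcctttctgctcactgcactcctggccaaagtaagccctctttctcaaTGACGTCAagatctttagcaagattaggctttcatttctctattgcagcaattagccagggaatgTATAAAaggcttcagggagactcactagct
Galnt15: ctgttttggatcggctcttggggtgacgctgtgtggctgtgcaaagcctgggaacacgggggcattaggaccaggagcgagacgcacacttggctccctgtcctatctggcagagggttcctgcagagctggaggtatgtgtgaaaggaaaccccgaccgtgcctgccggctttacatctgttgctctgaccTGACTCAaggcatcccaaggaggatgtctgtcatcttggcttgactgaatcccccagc
Of the 6 genes, 4 had a promoter in the table, and Noct and Ranbp3l held none of the letters searched in this window. The search covered TGACGTCA, the AP-1 letters TGACTCA and TGAGTCA, and the FOXO letters GTAAACA on both strands, and TATAAA on the sense strand. Over 32851 promoters of the same length, TGACGTCA was in 1.55%, an AP-1 match in 4.46%, the FOXO letters in 3.17% and TATAAA in 7.59%. A match is a description of the letters, not evidence of binding.

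Fosl1 encodes FRA1, an AP-1 subunit whose transcription follows ERK activity. Its log2 ratios in NIH3T3 were 0.14 and -0.45 at 24 h, -2.41 and -1.84 at 48 h and -4.79 and -4.50 at 72 h. The K-ras values were 0.77 and 0.50, then 0.04 and 0.13, then 0.30 and 0.39. The NIH3T3 arrays of the 3 times did not overlap and fell with time. The K-ras arrays spanned less than 1 log2 unit, with both 72 h arrays below both 24 h arrays. NIH3T3 fell by 4.49 (22.5-fold lower at 72 h; adjusted p = 0.000164), the K-ras change was -0.29 (adjusted p = 0.71), and the difference was 4.20 ± 0.38 (SE; limma adjusted p = 0.00734). The gene's other probe set gave a difference of 3.60.

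Dusp4, a nuclear phosphatase that switches off ERK and is itself induced by it, had log2 ratios in NIH3T3 of -0.29 and -0.60 at 24 h, -1.30 and -0.89 at 48 h and -3.01 and -2.69 at 72 h. Its K-ras values were 0.77 and 0.50, then 0.23 and 0.26, then 0.95 and 0.86. The largest step in NIH3T3 came between 48 and 72 h, and the K-ras arrays at 72 h were the highest of that line. The NIH3T3 change was -2.41, the K-ras change 0.27 and the difference 2.68 ± 0.32 (limma adjusted p = 0.0344).

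Noct encodes nocturnin, an enzyme of the CCR4 family whose transcript cycles with the circadian clock in many tissues. In NIH3T3 its log2 ratios were 0.10 and -0.18 at 24 h, -2.002 and -1.64 at 48 h and -3.39 and -3.02 at 72 h. In the K-ras line they were 0.35 and 0.35, then 0.17 and -0.23, then 0.40 and 0.19. As for Fosl1, the NIH3T3 groups were separate and in falling order. Unlike those of Fosl1, the K-ras groups at 24 and 72 h overlapped. The difference was 3.11 ± 0.33 (limma adjusted p = 0.0237), from a NIH3T3 change of -3.17, which is 8.97-fold lower.

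Ranbp3l, a relative of the nuclear export factor RANBP3, moved the other way. Its NIH3T3 log2 ratios were 0.53 and 0.69 at 24 h, 1.82 and 2.38 at 48 h and 4.51 and 4.42 at 72 h, while its 6 K-ras values lay between -0.10 and 0.24. The NIH3T3 groups were separate and rising, and no K-ras array reached the lowest NIH3T3 value. NIH3T3 rose by 3.85 (14.5-fold), the K-ras change was 0.11, and the difference was -3.74 ± 0.32 (limma adjusted p = 0.00734). The other probe set of Ranbp3l gave -1.503.

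Galnt15 belongs to the enzymes that start mucin-type O-glycosylation. Its NIH3T3 log2 ratios were -0.11 and 0.05 at 24 h, 1.37 and 1.78 at 48 h and 2.41 and 2.74 at 72 h, against -0.28 to -0.01 over the 6 K-ras arrays. Again the NIH3T3 groups were separate and rising. NIH3T3 rose by 2.60, and the difference was -2.48 ± 0.31 (limma adjusted p = 0.0391), with the other probe set at -0.69 and the mean of both probe sets at -1.59.

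Dio2, the deiodinase that turns thyroxine into active thyroid hormone inside cells, was the single gene of the 6 that rose in the K-ras line. Its K-ras log2 ratios were 0.27 and 0.64 at 24 h, 3.93 and 3.29 at 48 h and 3.47 and 3.03 at 72 h. In NIH3T3 they were -0.45 and 0.00, then -0.56 and -0.70, then -0.88 and -0.88. The K-ras arrays were as high at 48 h as at 72 h, and the arrays of those times overlapped. The K-ras line rose by 2.79 (6.93-fold; limma adjusted p = 0.0279), the NIH3T3 change was -0.66 (adjusted p = 0.179), and the difference was 3.45 ± 0.39 (adjusted p = 0.0296). The other 2 probe sets gave differences of 0.30 and 0.63 and K-ras changes of -0.24 and 0.53, so the rise was carried by a single probe set, and the mean of the 3 probe sets gave a difference of 1.46.

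**Figure D1:**
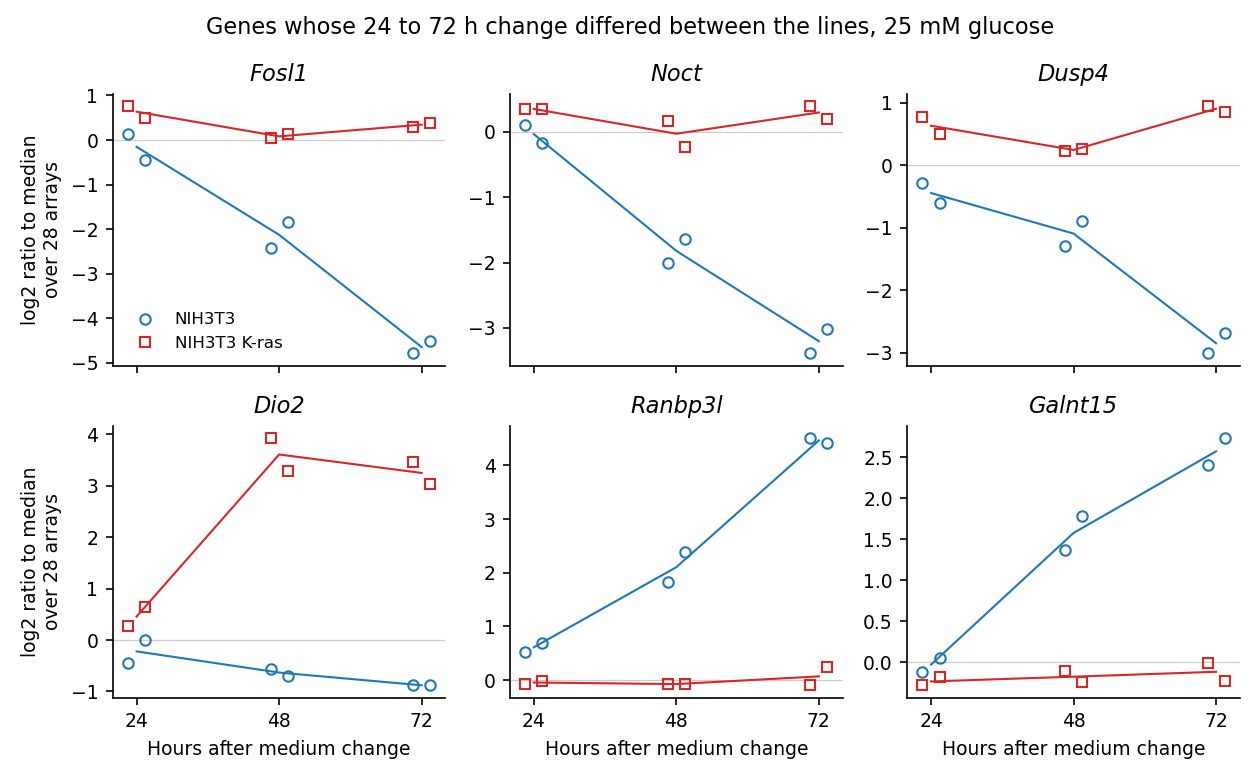
Log2 ratio to the median over 28 arrays (vertical axis, own scale in each panel) against hours after the medium change at 25 mM glucose for the 6 genes whose 24 to 72 h change differed between the lines. Points are single arrays, 2 per group, blue circles NIH3T3 and red squares NIH3T3 K-ras, and lines join group means; Fosl1, Noct and Dusp4 descend and Ranbp3l and Galnt15 climb in NIH3T3, and Dio2 climbs in the K-ras line.

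Among the 18 alternative analyses, Ranbp3l and Fosl1 were called in 13 each, Noct in 10, Dio2 in 9, Dusp4 in 7 and Galnt15 in 5, and 0 of the 6 changed direction in any. The arrays outside the fit give these genes' values at the medium change and at 1 mM glucose, without a test. At 0 h, the 2 NIH3T3 arrays had Fosl1 at -0.29 and -0.14 and Ranbp3l at -0.01 and -0.03, within (Fosl1) or below (Ranbp3l) the gene's values at 24 h. At 1 mM glucose and 72 h, NIH3T3 had Fosl1 at -1.53 and -1.71, Noct at -1.43 and -2.52 and Ranbp3l at 1.84 and 1.76. These lie on the same side of the 24 h values at 25 mM glucose as the 72 h arrays there, but closer to 0. Dusp4 at 1 mM and 72 h was at -0.65 and -0.45 in NIH3T3, near its 24 h values at 25 mM. Galnt15 in NIH3T3 at 1 mM and 72 h was at 2.32 and 0.35, which lie far apart. Dio2 in the K-ras line at 1 mM was at 0.20 and 1.22 at 24 h. On the array of each later time with the K-ras profile it was at 1.78 at 48 h and 0.53 at 72 h. The 72 h value thus lay between those at 24 h. The replicate 1 arrays labelled K-ras at 1 mM and 48 or 72 h had the NIH3T3 profile, with Dio2 at -0.74 at 48 h and -0.42 at 72 h.

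The 24 genes named for the largest or firmest differences include 18 that did not pass the test, with adjusted p between 0.0602 and 0.109 in limma. Of the 24, 21 passed in NIH3T3 (8.58% of all genes did) and 21 had the larger change there. The values that chose these genes are those of the same contrast and are given as a description. On the positive side Phlda1, an ERK-induced protein, changed by -2.76 in NIH3T3 and 0.03 in the K-ras line. Maff, a small MAF transcription factor, changed by -2.17 and 0.41. Cxcl1, a neutrophil chemokine, was at 2.49 and 2.50 in NIH3T3 at 24 h and at -0.94 and -1.06 at 72 h, against -0.17 and 0.03, then -0.14 and 0.11, in the K-ras line. Its NIH3T3 arrays were far apart while its K-ras arrays of the 2 times overlapped, and its other probe sets gave differences of 1.97 and 3.67. Srm, the spermidine synthase that makes a polyamine of growing cells, changed by -2.14 and -0.26. Slc19a1, which carries reduced folates into cells, changed by -2.05 and -0.11. Its other probe sets gave K-ras changes of -0.84 and -0.09 and differences of 1.29 and 0.53 against 1.94. The noncoding transcript Rab26os changed by -2.83 and 0.09.

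Besides Dio2, 2 of the positive genes had the larger change in the K-ras line. Rgs4, which shortens signalling by G proteins, was at 0.91 and 0.80 at 24 h and at 2.54 and 2.13 at 72 h in that line, against -0.22 and -0.03, then -0.36 and -0.44, in NIH3T3. Tmem176a, a membrane protein, was at 1.62 and 1.34, then 3.15 and 3.19, against -0.69 and -0.80, then -0.94 and -0.95. In both genes the K-ras arrays of the 2 times did not overlap. The K-ras changes of 1.48 and 1.69 had adjusted p of 0.106 and 0.0863, and the differences of 1.75 and 1.89 had 0.106 each (limma). Other probe sets gave differences of 0.47 and 0.54 for Rgs4 and 0.84 and 0.80 for Tmem176a.

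On the negative side the largest difference among the 24 was that of Serpinb1a, an inhibitor of neutrophil proteases. It was at 0.29 and 0.78 in NIH3T3 at 24 h and at 5.41 and 5.28 at 72 h, against -0.94 and -0.73, then -0.39 and -0.54, in the K-ras line. Both lines' 72 h arrays were above their 24 h arrays, but the rise was 4.81 in NIH3T3 and the K-ras change 0.37 (difference -4.44 ± 0.59, limma adjusted p = 0.0602, -1.38 by its other probe set). Nrp2, a co-receptor for semaphorins and vascular growth factors, changed by 2.54 in NIH3T3 and -0.78 in the K-ras line, with its other probe sets giving differences of -2.62, -1.76 and -2.85. Fbxl20, an F-box protein of ubiquitin ligases, was at 3.27 and -0.18, and Smim14, a small membrane protein, at 2.72 and -0.34. Bicral, a subunit of a chromatin remodelling complex, was at 1.73 and -0.86, Bmt2 at 1.82 and -0.76, and Mpzl1, a cell surface protein, at 1.10 and -0.73. Other probe sets gave differences of -0.39, 0.02 and -0.89 for Bicral, -1.09 for Bmt2, -0.01 for Mpzl1 and -0.47 to -1.58 for Fbxl20. Those of Smim14 gave -0.98 and -1.17 against -3.05, with K-ras changes of 0.57 and 0.25. Lrrcc1, a centrosome protein, changed by 1.83 and -0.10 and Caap1 by 1.50 and -0.58. Fry changed by 2.01 and -0.04, but its other probe sets gave differences of -0.17, 0.81 and 0.24, so its direction depends on the probe set.

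**Figure D2:**
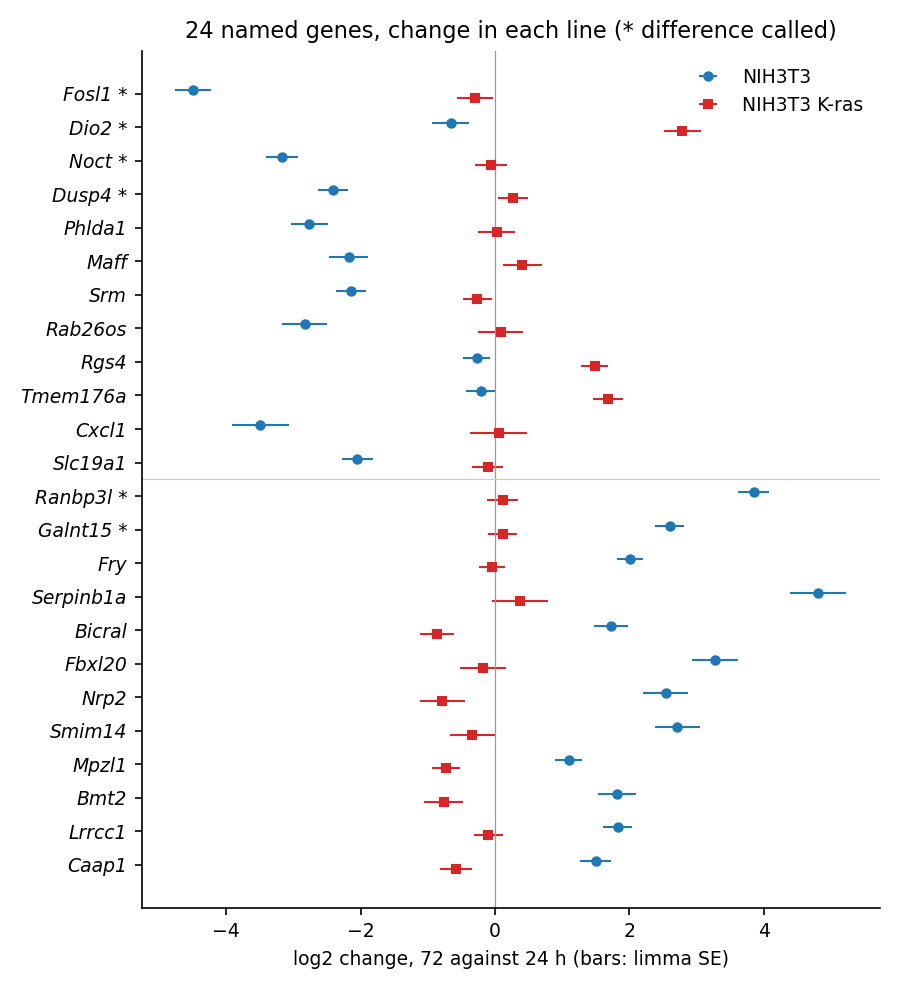
Log2 change from 24 to 72 h at 25 mM glucose (horizontal axis) for the 24 named genes, 12 with a positive difference above the grey line and 12 with a negative one below it. Blue circles are NIH3T3, red squares NIH3T3 K-ras, bars are limma standard errors from 2 arrays a group, and an asterisk marks the 6 genes whose difference was called; for 21 of the 24 the blue point lies farther from 0 than the red.

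With both 72 h arrays of each line in the fit, the wider pattern was a large response in NIH3T3 and a small one in the K-ras line. How small the K-ras response was depends on which of its 72 h arrays is used, as given below. In NIH3T3, 991 genes rose (5.45% of genes tested) and 570 fell (3.13%) between 24 and 72 h. In the K-ras line 3 genes rose (0.0165%) and 0 fell, with 1580 genes at an unadjusted p under 0.05. Changes of at least 2 log2 units were seen in 500 genes in NIH3T3 and 43 in the K-ras line, 21 of them in both and in the same direction. The genes that rose in NIH3T3 had a median change of 1.69 there and 0.29 in the K-ras line, and 715 of the 991 (72.2%) had a positive K-ras change, as had 9398 of all 18193 genes. Those that fell had medians of -1.34 and -0.34, and 475 of 570 (83.3%) had a negative K-ras change, as had 8794 of all 18193 genes. These genes were chosen for their NIH3T3 change, which favours the larger value there, so the 2 medians are a description. The difference between the lines itself was called for 5 of the 1561. The medians over all genes were -0.10 in NIH3T3 and 0.02 in the K-ras line, and 0.10 for the difference.

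The NIH3T3 count rests on both of its 72 h arrays: it was 18 without replicate 1 and 24 without replicate 2, and 162 and 432 without NIH3T3 24 h replicates 1 and 2. It was 2548 without either NIH3T3 48 h array, 2366 without either K-ras 72 h array and 916 without either K-ras 48 h array. For the K-ras line the count was 2744 without 72 h replicate 2 and 0 without 72 h replicate 1, without either array of its 24 h group, or without any of the NIH3T3 24 h and 72 h arrays. The counts of list members called in NIH3T3 share this limit. The size of the K-ras change also depended on its 72 h arrays in some lists. Its DNA replication median was -0.115 without replicate 1 and -1.058 without replicate 2, against -1.722 in NIH3T3. For mitosis genes the values were -0.012 and -0.858, against -1.48. For RAS-MAPK output they were closer together, at -0.188 and -0.287, against -1.448.

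**Figure D3:**
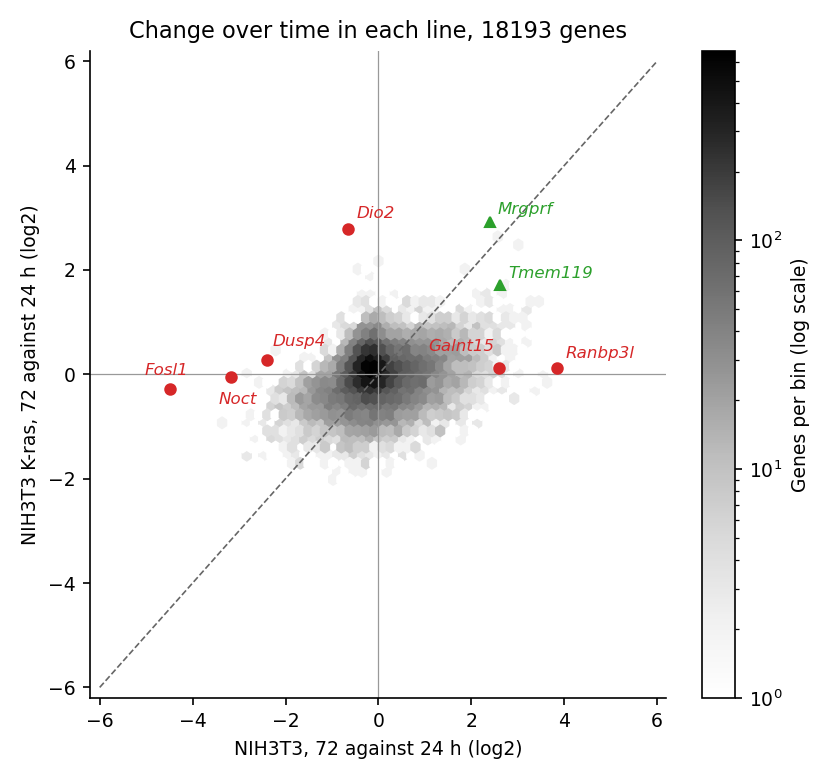
Change from 24 to 72 h in NIH3T3 (horizontal) against the same change in NIH3T3 K-ras (vertical), both in log2 units, for 18193 genes as hexagonal bins shaded by gene count on a log scale. The dashed line marks equal change; red circles are the 6 genes whose difference was called, green triangles are Mrgprf and Tmem119, and the cloud is wider along the NIH3T3 axis.

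Of the 3 genes that rose in the K-ras line, Dio2 is described above and the others rose in NIH3T3 too. Mrgprf, an orphan receptor coupled to G proteins, was at -1.49 and -1.07 at 24 h and 1.90 and 1.37 at 72 h in the K-ras line, and at 0.01 and -0.06, then 2.35 and 2.38, in NIH3T3. Tmem119, a membrane protein known from osteoblasts and microglia, was at -0.66 and -0.45, then 1.06 and 1.27, in the K-ras line and at -1.45 and -1.15, then 1.40 and 1.24, in NIH3T3. In both lines the 72 h arrays were above the 24 h arrays. Mrgprf rose by 2.92 in the K-ras line and 2.39 in NIH3T3, a difference of 0.52 with a 95% interval of -0.44 to 1.48. Tmem119 rose by 1.72 and 2.62, a difference of -0.90 (-1.52 to -0.28, limma adjusted p = 0.238).

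The gene lists describe which functions the difference touched. There were 26 lists with 774 measured entries, and 20 had a larger median change in NIH3T3 than in the K-ras line, ignoring sign. In 22 of 26 the medians had the same sign in both lines. No list member other than Dusp4, Fosl1 and Noct was called in the difference, and 0 members were called in the K-ras line. Over all genes 5.45% rose and 3.13% fell in NIH3T3, and 56.4% had a positive difference. The list counts below are to be read against these shares.

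RAS-MAPK output genes, the transcripts raised by ERK signalling, had a median change of -1.45 in NIH3T3 and -0.26 in the K-ras line, and a median difference of 1.17 against 0.10 over all genes. The difference was positive for 20 of 28, against 56.4% of all genes, and called for 2, Fosl1 and Dusp4. In NIH3T3 13 of the 28 fell and 1 rose, against 3.13% and 5.45% of all genes. Among those that fell were the EGF receptor ligands Hbegf (-3.98, K-ras -0.997) and Ereg (-3.34, K-ras -1.003), the receptor kinase gene Epha2 (-2.71, K-ras -0.82), the chromatin protein gene Hmga2 (-2.71, K-ras -0.15) and the phosphatases Dusp5 (-2.69, K-ras -0.87) and Dusp6 (-1.60, K-ras 0.09). Hbegf in the K-ras line differed between replicates, at -0.20 and 1.44 at 24 h and 0.37 and -1.13 at 72 h, so its change there has no clear sign. Myc fell by 1.52 in NIH3T3, with a K-ras change of -0.42. Spred1, an inhibitor of RAS signalling, rose by 2.20 in NIH3T3 with a K-ras change of -0.16, and its other 7 probe sets gave NIH3T3 changes between -0.33 and 1.10. Etv5, an ERK-induced ETS factor, was at -1.11 in NIH3T3 and 0.81 in the K-ras line, with neither passing the test. The array medians of the list were 0.06 and -0.07 in NIH3T3 at 24 h and -1.53 and -1.44 at 72 h, and 0.26 and 0.50, then 0.09 and 0.06, in the K-ras line.

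Immediate early genes, which serum raises within minutes, had a median change of -0.31 in NIH3T3 and -0.04 in the K-ras line, and a median difference of 0.47 against 0.10 over all genes. In NIH3T3 3 of 27 fell, Fosl1, Maff and Ier2 (-1.23), where 3.13% of all genes did. Jund rose by 1.29, with its other probe set at -0.39. Egr1 (-1.85, K-ras 0.47), Jun (-1.68, K-ras 0.12) and Nr4a1 (-1.50, K-ras -0.06) had adjusted p of 0.0576, 0.0532 and 0.053 in NIH3T3 (limma). Fos itself, the founding AP-1 member, was at 0.32 in NIH3T3 and 1.14 in the K-ras line, neither called.

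Genes of DNA replication were lower at 72 h in NIH3T3, at a median change of -1.72, and 8 of 48 passed the test, where 3.13% of all genes fell. They included the helicase subunits Mcm3 (-3.11, K-ras -0.09; -0.61 to -2.76 in NIH3T3 by its other probe sets), Mcm7 (-2.36, K-ras -0.30) and Mcm2 (-1.72, K-ras -0.34) and the clamp Pcna (-1.88, K-ras -0.48). Among 47 mitosis genes the median change was -1.48. The NIH3T3 change was negative for all 47, and for all 48 DNA replication genes, as for 10781 of all 18193 genes. The checkpoint gene Bub3 (-1.59, K-ras -0.12) was the 1 mitosis gene that passed the test. Its other 4 probe sets gave NIH3T3 changes between -0.66 and 0.11. The test uses a spread shared by all groups, the split NIH3T3 48 h arrays described below among them. The single pass therefore does not show that few mitosis genes were lower. K-ras medians were -0.60 and -0.49, and the median differences were 1.13, positive for 43 of 48, and 1.03, positive for 44 of 47. The K-ras replicates disagreed at 72 h: the median DNA replication ratio was -0.81 on replicate 1 and 0.04 on replicate 2, against 0.12 and 0.20 at 24 h. Without replicate 1 the median difference was 1.75 for DNA replication and 1.46 for mitosis, and without replicate 2 it was 0.77 and 0.57. The mitosis median was 0.68 with the mean of each gene's probe sets. The NIH3T3 arrays at 48 h were also split, at -1.83 and 0.24 for DNA replication and -2.18 and 0.18 for mitosis, while both 72 h arrays were low, at -1.32 and -1.26 for DNA replication. The low 48 h array, replicate 1, also differed in its RNA controls: its 3′ minus 5′ difference was 0.43 for GAPDH, against 0.08 or less on the other 11 arrays, and 0.61 for actin. The actin difference was 0.65 on K-ras 72 h replicate 2 and 0.49 on K-ras 24 h replicate 1, against 0.19 or less on the other 9. The part of these controls in the list medians was not tested. Ccnd1, the cyclin through which growth factors start the cycle, was at -0.88 and 1.53 in the K-ras line at 24 h and 0.80 and -1.10 at 72 h, and did not pass in either line.

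Genes of the nucleolus and ribosome biogenesis fell in NIH3T3 for 28 of 47, more than for any other list here, with a median of -1.43. The RNA helicase gene Ddx21 (-2.30, K-ras -0.93), the snoRNP protein gene Nop56 (-2.18, K-ras -0.94), the rRNA methyltransferase gene Nop2 (-2.01, K-ras -0.57) and Ppan (-1.83, K-ras -0.25) were among them. The K-ras median was -0.63, with 0 called, and the median difference was 0.76, positive for 44 of 47. The K-ras array medians were 0.14 on both arrays at 24 h and -0.65 and -0.17 at 72 h, so both 72 h arrays were below the 24 h arrays, by unequal amounts. In NIH3T3 they went from 0.67 and 0.31 to -0.90 on both. Other biosynthetic lists moved alike in NIH3T3. Of 24 purine and pyrimidine synthesis genes 8 fell, among them Ctps (-1.74, K-ras -0.40) and Atic (-1.74, K-ras 0.11), and 1 rose. Of 19 cytosolic tRNA synthetases 4 fell, where 3.13% of all genes did, with a list median of -0.77 against -0.11 in the K-ras line.

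**Figure D4:**
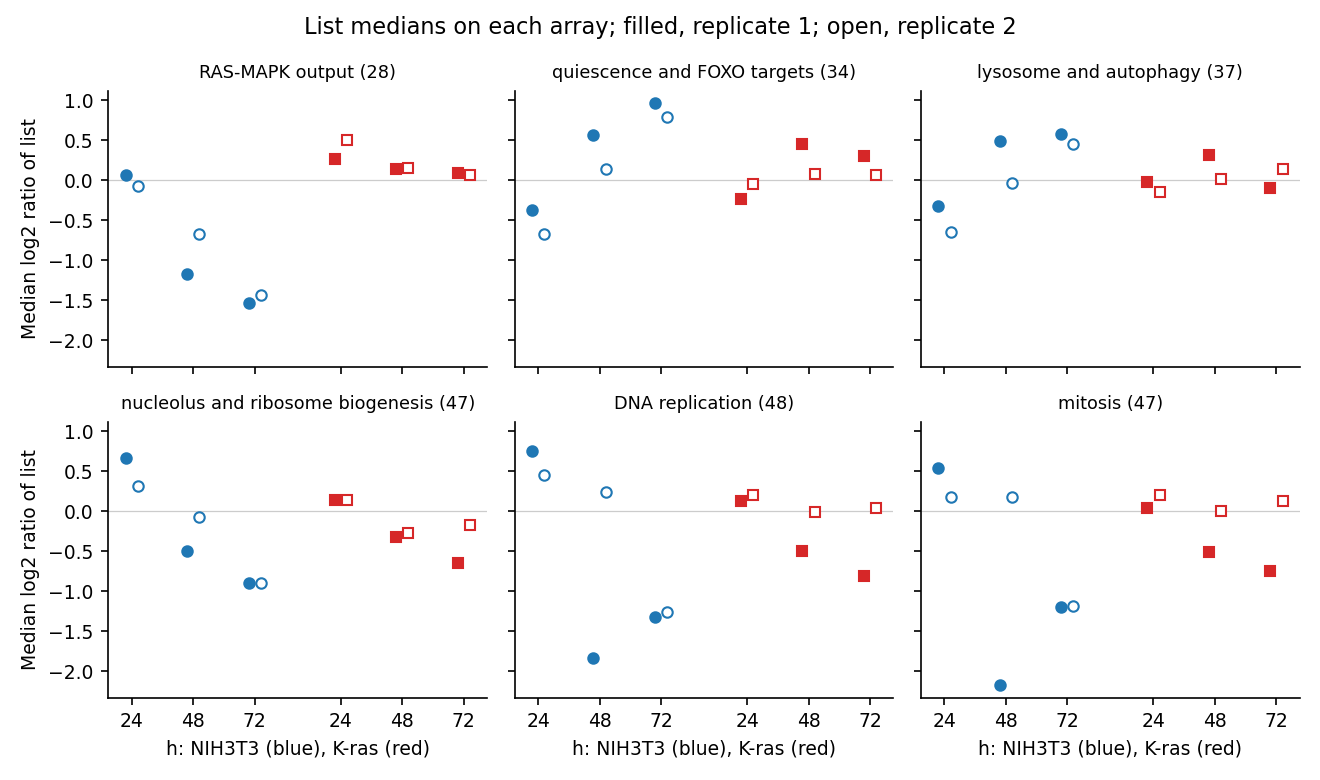
Median log2 ratio of 6 gene lists (number of genes in brackets) on each of the 12 arrays at 24, 48 and 72 h, blue for NIH3T3 and red for NIH3T3 K-ras, filled symbols for replicate 1 and open ones for replicate 2. In NIH3T3 all 6 lists separate 24 from 72 h. The K-ras arrays of the 2 times overlap for the mitosis and lysosome lists and are separate for the others. The K-ras replicates at 72 h lie apart for DNA replication (-0.81 and 0.04).

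Quiescence and FOXO target genes rose in NIH3T3 for 16 of 34 and fell for 0, with a median change of 1.50 against 0.33 in the K-ras line. Trp53inp1, an autophagy regulator, was at -2.09 and -2.35 at 24 h and 1.75 and 2.002 at 72 h in NIH3T3, and at -0.23 and -0.41, then 0.59 and 0.27, in the K-ras line. Both lines' arrays of the 2 times were separate, with a NIH3T3 change of 4.10 and a K-ras change of 0.75. Its other probe set gave 0.24 and -0.02, so the contrast rests on a single probe set. Klhl24 (3.73, K-ras 0.32), the stress sensor gene Sesn1 (3.42, K-ras -0.24), Ccng2, a cyclin of resting cells (3.39, K-ras 0.11), the antiproliferative gene Tob1 (2.57, K-ras -0.15, but -0.30 in NIH3T3 by its other probe set) and the pocket protein gene Rbl2 (1.99, K-ras 0.24) also rose in NIH3T3. Other members had K-ras values nearer those of NIH3T3, such as Pik3ip1 (2.98, K-ras 1.57) and Trp53inp2 (2.31, K-ras 1.42). Their K-ras changes did not pass the test. The median difference was -1.23, negative for 29 of 34, with 0 called. It was -0.81 after quantile normalisation and -0.79 with the mean of each gene's probe sets.

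Txnip, a glucose-responsive inhibitor of thioredoxin and of glucose uptake, was at 1.35 and 0.71 in NIH3T3 at 24 h and at 3.51 and 3.50 at 72 h. In the K-ras line it was at -1.79 and -0.48, then 1.20 and 0.30. The arrays of the 2 times were separate in both lines, at changes of 2.48 (adjusted p = 0.0548) and 1.88 (adjusted p = 0.569 in limma). The difference was -0.59 with a 95% interval of -2.76 to 1.58, and it turned to 0.03 after quantile normalisation.

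Lysosome and autophagy genes rose in NIH3T3 for 11 of 37 and fell for 0, at a median of 0.95 against 0.15 in the K-ras line. The lysosomal membrane gene Lamp2 was at -2.96 and -2.40 at 24 h and 0.87 and 0.27 at 72 h in NIH3T3, and at 0.64 and 0.27, then -0.41 and 0.38, in the K-ras line. Its NIH3T3 arrays were far apart and its K-ras arrays overlapped. Tpp1, a lysosomal peptidase gene (2.41, K-ras 0.14), the channel gene Mcoln1 (1.998, K-ras 0.17), the sialidase gene Neu1 (1.98, K-ras -0.55) and the protease gene Ctsd (1.81, K-ras 0.89) rose too. The other 2 probe sets of Neu1 gave differences of 0.44 and 0.41 against -2.52, the opposite sign. The list's median difference was -0.76, negative for 31 of 37, and -0.45 with the mean of each gene's probe sets.

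Contractile genes and targets of the serum response factor and YAP fell in NIH3T3 for 8 of 30, at a median of -0.63 against -0.02 in the K-ras line. The secreted YAP targets Ccn1 (-4.69, K-ras -2.04) and Ccn2 (-2.67, K-ras -1.31) and the smooth muscle gene Tagln (-2.12, K-ras -1.23) had negative values in both lines. Thbs1, a matrix glycoprotein, was at 1.51 and 1.12, then -1.70 and -1.80, in NIH3T3, and at -0.12 and -0.12, then 1.15 and 0.43, in the K-ras line. It fell by 3.07 in NIH3T3, and its K-ras change of 0.91 did not pass (adjusted p = 0.62, 95% interval -0.45 to 2.27), a difference of 3.98 ± 0.86 (limma adjusted p = 0.156), and 3.51 by its other probe set. Acta2, smooth muscle actin, was at -0.26 in NIH3T3 and -0.84 in the K-ras line, neither called, and the sign of its difference varied among its probe sets.

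Of 39 collagens and fibrous matrix genes, 10 rose and 2 fell in NIH3T3, where 5.45% and 3.13% of all genes did. The medians were 0.59 in NIH3T3 and 0.47 in the K-ras line. The median difference was -0.06, against 0.10 for all genes, and 0 of the 39 were called in the K-ras line or in the difference. Single arrays left out moved the median difference between -0.26 and 0.09. Col6a1 was at 1.32 in NIH3T3 and 1.36 in the K-ras line and Col6a2 at 1.18 and 1.43. Elastin, Eln, was at 3.57 and -0.13 (0.63 and -0.19 by its other probe set), and Col1a2 at 2.22 and -0.42 (0.97 and 0.52, and 0.96 and 0.58, by its others). The proteoglycan gene Prelp was at -0.36 and -0.99, then 5.18 and 4.58, in NIH3T3 and at -1.60 and -1.86, then 2.31 and 1.05, in the K-ras line, with the arrays of the 2 times separate in both. It rose by 5.56 in NIH3T3, and its K-ras change of 3.41 had a limma adjusted p of 0.535. Ogn rose by 4.94 (K-ras 1.56) and the scavenger receptor gene Scara5 by 5.08 (K-ras 1.51, difference -3.57, and -0.20 by its other probe set). Of 12 fibroblast markers 5 rose in NIH3T3, where 5.45% of all genes did, with a median of 1.79 against 0.76 in the K-ras line. The lists of leukocyte, epithelial, endothelial, fat cell and skeletal muscle markers had median differences between 0.08 and 0.28, and 0 of their 52 measured genes were called in any comparison.

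The other lists had median differences between -0.48 and 0.34. In the circadian clock list Dbp, an output gene of the clock, rose by 2.88 in NIH3T3 (K-ras 0.47), while Noct fell. Among genes of glucose use, the pyruvate dehydrogenase kinase gene Pdk1 was at -3.64 and -3.72 at 24 h and 0.26 and -0.38 at 72 h in NIH3T3, and at 0.87 and 0.01, then 0.21 and 0.64, in the K-ras line. Its NIH3T3 arrays were wholly separate and its K-ras arrays overlapped, with changes of 3.62 and -0.02. Other Pdk1 probe sets gave differences of -0.81, 1.34 and -0.97 against -3.63, so the size and sign depend on the probe set. Pdk2 rose by 2.49 (K-ras 0.54). The glycolysis list as a whole had medians of 0.09 and -0.01. Cholesterol synthesis genes had medians of 0.61 and 0.47, with Hmgcs1 (1.90, K-ras 0.28), Insig1 and Tm7sf2 called in NIH3T3. In the NRF2 antioxidant list catalase, Cat, rose by 2.17 (K-ras -0.71) and glutathione reductase, Gsr, fell by 1.64 (K-ras -0.14). The other Gsr probe set was at -1.24 in NIH3T3 and -0.85 in the K-ras line, a difference of 0.39 against 1.50. Antigen presentation genes B2m (1.79, K-ras 0.27) and Tapbp (2.45, K-ras 1.35) rose in NIH3T3.

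**Figure D5:**
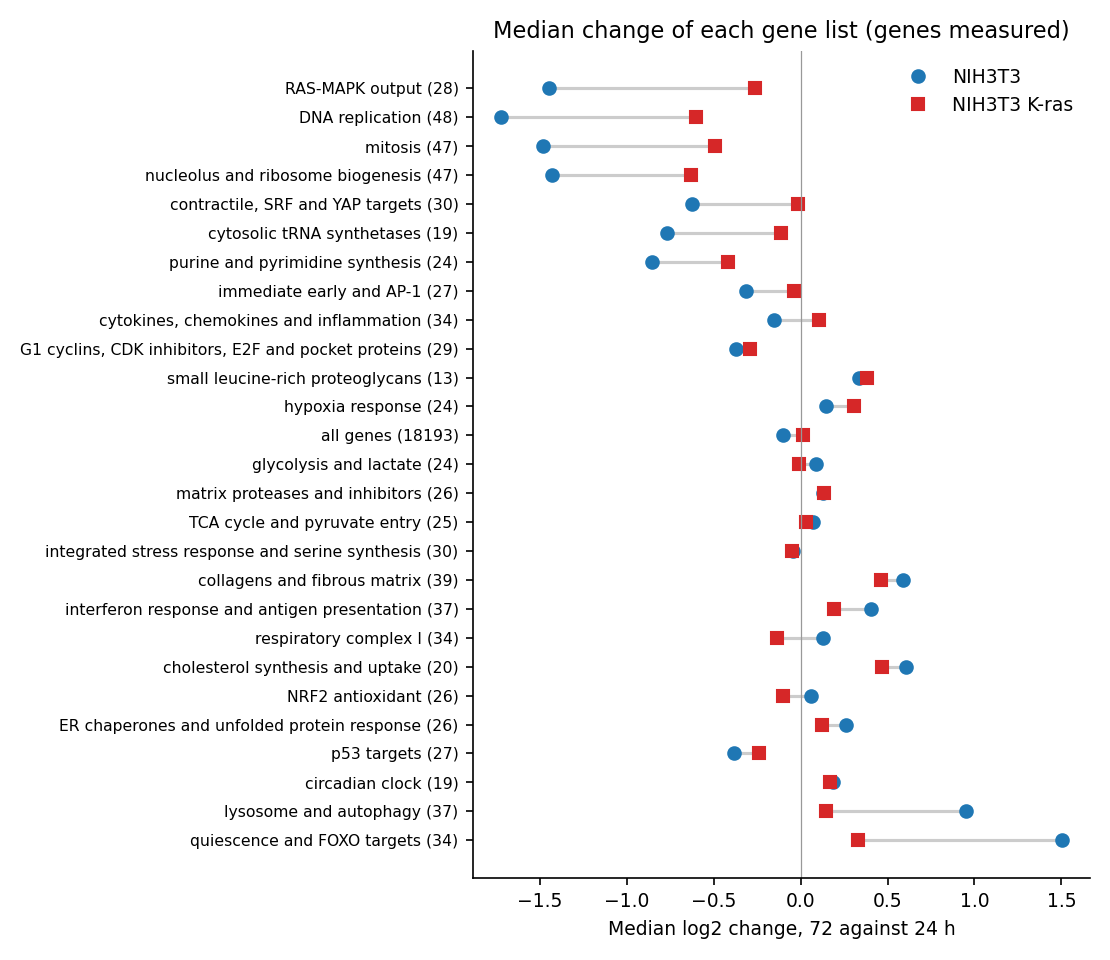
Median log2 change from 24 to 72 h of 26 gene lists and of all genes, blue circles for NIH3T3 and red squares for NIH3T3 K-ras, ordered by the median difference between the lines (number of measured genes in brackets). RAS-MAPK output, DNA replication, mitosis, nucleolus, lysosome and quiescence lists have the widest gaps, and the circles lie farther from 0 in 20 of the 26 lists.

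A day earlier, in 48 against 24 h, the difference between the lines was called for 0 of 18193 genes (0%) by limma, with 1168 at an unadjusted p under 0.05 and a smallest adjusted p of 0.09, that of Dio2. This comparison shares its 24 h arrays with the one at 72 h, so the values are set side by side only. Dio2 differed by 3.56 at 48 h and 3.45 at 72 h. Fosl1 differed by 1.42 and 4.20, Noct by 1.41 and 3.11, Dusp4 by 0.26 and 2.68, Ranbp3l by -1.52 and -3.74 and Galnt15 by -1.55 and -2.48. Serpinb1a, in contrast to Dusp4, was already at -3.61 against -4.44. The median difference was 0.55 and 1.17 for RAS-MAPK output, 0.91 and 1.13 for DNA replication, 0.26 and 0.76 for the nucleolus and -0.48 and -1.23 for quiescence genes. The 0.91 rests on 2 unlike NIH3T3 48 h arrays, with DNA replication medians of -1.83 on replicate 1 and 0.24 on replicate 2. Replicate 1 is the array with the raised GAPDH 3′ minus 5′ difference. It is also 1 of 3 arrays with a raised actin difference, with K-ras 72 h replicate 2 and K-ras 24 h replicate 1. How much of the DNA replication difference was there at 48 h is therefore unclear.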

How the data were processed

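RNA of 28 cultures was measured on Affymetrix arrays. The submitters' processing notes name RMA, with no version or order of steps. Log2 values were deposited for 45101 probe sets, and in all 45101 of them the median linear ratio over the 28 arrays was 1 (within 0.001). A value therefore gives a difference from the series median and no level, and signal over background is unknown. The number of arrays limits the precision. The platform annotation gave 1 symbol for 34945 probe sets, several for 932 and none for 9160, and 64 were controls. Of the named ones 34741 matched RefSeq by Entrez number. Probe sets without a single symbol were left out. For 9010 genes with over 1 probe set, that with the largest SD over 28 arrays stood for the gene, giving 18193 genes.

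Each of 6 groups of 2 arrays had its own coefficient in limma 3.58.1 (R 4.3.3; lmFit, contrasts.fit, eBayes), with 6 residual degrees of freedom. Genes were called at a Benjamini-Hochberg adjusted p under 0.05, over all genes of a comparison. Errors are limma standard errors. The named genes are the 12 with the largest difference in each direction among called genes whose 72 and 24 h arrays do not overlap, with free places filled by the smallest p, up to 4 called or 2 uncalled members of each list, and a set fixed by name, of which 18 were in the table. Genes given as members of a list that changed in NIH3T3 or went against it were picked beside that rule after their values were seen. The arrays, the lists and the genes were chosen with earlier results of these data known. On simulated data with the same spread in all groups and 200 changed genes of 18193, 5 of 117 calls were false. The 6 other settings tried were all 28 arrays, 8 arrays, quantile normalisation, a filter on SD, the mean of a gene's probe sets and a replicate block; each of the 12 arrays was also left out in turn, which assumes that the lone array left in its group varies like the other groups. Promoters were read with Python 3.11.15 and figures drawn with matplotlib 3.10.9.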

Additional observations from a re-analysis of the deposited data

Results flagged for a closer look

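The change from 24 to 72 h at 25 mM glucose differed between the 2 lines, by limma's test of the difference itself, for 6 genes. In log2 units, K-ras line minus NIH3T3, it was 4.20 for Fosl1, 3.11 for Noct, 2.68 for Dusp4 and 3.45 for Dio2. It was -3.74 for Ranbp3l and -2.48 for Galnt15. For Fosl1, Noct, Dusp4, Ranbp3l and Galnt15 the change lay in NIH3T3, and for Dio2 in the K-ras line.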

How the results depend on the processing

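The number of genes called in the 72 h difference was 6. It was 1 with all 28 arrays, 70 with 8 arrays, 13 after quantile normalisation and 0 to 2171 when single arrays were left out. With the replicate number as a block it was 2. The numbers do not pair the arrays: 15 correlations of replicate deviations ran from -0.33 to 0.41, with 4 above 0.1. In NIH3T3 the count was 1561 and between 1118 and 1975 under the other settings, and 18 to 2548 with single arrays left out. In the K-ras line it was 3, 0 with all 28 arrays and 0 to 2744 with single arrays left out. The 48 h difference had 0 calls, 2 after quantile normalisation and 0 to 179 with single arrays left out. The 6 called genes kept their direction in all 18 alternatives. The difference changed sign for Arrdc4 (-0.20; -0.504 to 0.107 with single arrays left out, 0.709 after quantile normalisation, 0.107 without NIH3T3 72 h replicate 2, 0.065 without K-ras 72 h replicate 1), Nolc1 (0.48; -0.246 to 1.204 with single arrays left out, -0.016 without NIH3T3 24 h replicate 1, -0.246 without K-ras 72 h replicate 2) and Txnip (-0.59; -1.244 to 0.059 with single arrays left out, 0.034 after quantile normalisation, 0.059 without K-ras 24 h replicate 2). None of the 3 was called, and the cause was not tested. With 2 arrays a group and no measure of signal over background, genes near background cannot be told from others.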
